A study of Mus musculus with 2 samples.

Results

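The 9 genes described here encode the MHC class I presentation pathway and were taken by symbol from the 31053 genes counted in the lung libraries. They comprise the classical heavy chains H2-K1 and H2-D1, the light chain B2m, the peptide transporter genes Tap1 and Tap2, the loading factor Tapbp (tapasin), the immunoproteasome catalytic subunits Psmb8 and Psmb9, and the transactivator Nlrc5. All 9 were found in both libraries, each under a single Ensembl identifier. Their levels were followed across cell classes and between Normoxia and Hypoxia.

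The study examined pericytes in hypoxic remodeling of pulmonary vessels. The data used here are 2 droplet-based single-cell libraries of mouse lung, 1 per condition. The mouse single-cell data in the study's methods belong to another series. Mice of both groups carried NG2-CreERTM and the Ai14 tdTomato reporter, so that tamoxifen marked cells in which the promoter of NG2 (gene Cspg4) was active. After a rest following tamoxifen, the Hypoxia group was kept at FiO2 10% for 21 days, whereas the Normoxia group had no such treatment. The methods give male mice aged 2 to 4 months for the study in general, while the age of the mice behind these libraries, their H-2 haplotype (the set of class I alleles) and whether animals were pooled are not given in the sources used here. With 1 library per group every difference below is one between libraries for which condition, animal and preparation cannot be told apart.

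The Normoxia matrix held 373 barcodes and 1323874 unique molecular identifiers (UMIs, counted transcripts), of which 293 cells and 1112485 UMIs were retained. The Hypoxia matrix held 613 barcodes and 1989423 UMIs, of which 453 cells and 1592173 UMIs were retained. A median cell had 3135 and 2818 UMIs, respectively. The labels describe sorted tdTomato cells, but a UMI of Cspg4 was found in only 1 Normoxia and 2 Hypoxia cells and one of the mural gene Pdgfrb in 27 and 10, while 57 and 126 had one of the leukocyte gene Ptprc. The libraries are therefore described by their clusters. The largest class was endothelial cell-like, with 93 Normoxia and 189 Hypoxia cells in clusters 2, 10, 11 and 12 and all 11 endothelial markers detected in both libraries. Both matrices shared 2 barcodes, of which 1 was retained in each, and leaving those cells out moved none of the members' ratios beyond its interval.

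MHC class I molecules display peptides from inside the cell to CD8 T cells and natural killer cells. Proteasomes cut cytosolic proteins, and interferon exchanges 3 of their catalytic subunits for Psmb8, Psmb9 and Psmb10. TAP1 and TAP2 carry the peptides into the endoplasmic reticulum, where tapasin holds the heavy chain close to the transporter until it binds one. The heavy chain reaches the surface together with beta-2 microglobulin. NLRC5 drives these genes through the SXY module of their promoters, and interferon-gamma and NF-kB raise them in most tissues. Endothelial cells carry class I constitutively and raise it further in response to interferon.

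On GRCm38, 7 of the 9 genes lie on chromosome 17 in or near the H-2 complex. H2-K1 is at chr17:33996017-34000347 on the minus strand and H2-D1 at chr17:35262730-35267499 on the plus strand. Psmb9 (chr17:34181987-34187764, minus), Tap1 (chr17:34187553-34197225, plus), Psmb8 (chr17:34197721-34201454, plus) and Tap2 (chr17:34203527-34216321, plus) stand next to each other, and Tapbp lies at chr17:33915899-33929292 on the plus strand. B2m is at chr2:122147686-122153083 and Nlrc5 at chr8:94434356-94527272, both on the plus strand. Sequence shared with other genes was looked for near the end of each transcript. In the last 500 bases of each member's transcript, 0 of 401 windows of 100 bases were found in another gene. Sequence further from the end and shorter stretches were not checked.

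Promoter sequences from RefSeq (GRCm38.p6, 250 bases before to 50 after the start site) were matched for 7 of the 9 genes, and none was matched for Tap2 or Nlrc5. The stretches below are shown because H2-K1, H2-D1 and B2m make up most of the class I UMIs and because the start sites of Tap1 and Psmb9 face each other across a single stretch. They run from chr17:34000334-34000468 (H2-K1, minus strand), chr17:35262913-35263050 (H2-D1, plus), chr2:122147538-122147643 (B2m, plus) and chr17:34187331-34187555 (between Psmb9 and Tap1, plus strand, Tap1 to the right). Capitals mark GGGGATTCC (the NF-kB site of the class I enhancer), GAAANNGAA (the core of an interferon-stimulated response element), TGACG (the core of the X2 box) and ATTGG (the Y box, an inverted CCAAT box), on either strand.
H2-K1: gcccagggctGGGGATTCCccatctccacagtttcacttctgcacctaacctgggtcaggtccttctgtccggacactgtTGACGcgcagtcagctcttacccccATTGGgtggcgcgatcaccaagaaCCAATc
H2-D1: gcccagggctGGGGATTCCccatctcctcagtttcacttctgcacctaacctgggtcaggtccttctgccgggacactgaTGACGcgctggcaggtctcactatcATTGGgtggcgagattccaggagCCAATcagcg
B2m: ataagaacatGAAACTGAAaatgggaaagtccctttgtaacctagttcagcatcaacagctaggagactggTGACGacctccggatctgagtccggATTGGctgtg
Psmb9 to Tap1: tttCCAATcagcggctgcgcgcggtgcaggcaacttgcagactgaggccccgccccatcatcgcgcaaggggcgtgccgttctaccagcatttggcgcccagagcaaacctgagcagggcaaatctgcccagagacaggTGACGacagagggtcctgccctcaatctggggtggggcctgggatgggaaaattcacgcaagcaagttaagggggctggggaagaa

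The H2-K1 and H2-D1 stretches were aligned, and 119 of 139 positions (85.6%) were identical. GGGGATTCC, which 0.250% of all 32851 promoters hold, occurred in H2-K1 and H2-D1, and it began 70 bases before TGACG in both. TGACG alone is held by 20.8% of promoters and ATTGG by 37.4%. In H2-K1, H2-D1 and B2m, ATTGG began 25 bases after TGACG, a spacing found in 31 promoters (0.0944%); this spacing was looked for after the matches had been seen. GAAANNGAA (8.56% of promoters) was matched in B2m alone, and TTCNNNGAA (the core of a STAT site, 8.30%) in Psmb8 alone. H2-K1 and H2-D1 both hold tttcacttc after the NF-kB site, letters that the strict pattern GAAANNGAA does not cover on either strand. A missing match therefore does not show that a promoter lacks an interferon-stimulated response element. A match describes the letters of the window and not binding of a factor.

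Class I levels were highest in endothelial cell-like cells. Levels are given as CPM, the UMIs of a gene per 1000000 UMIs of the cells summed, which is not scaled by length because each transcript is counted once at its 3' end. Intervals cover 95% counting error only. B2m stood at 4450 CPM in Normoxia endothelial cell-like cells (1119 UMIs) and at 5575 CPM in Hypoxia (3407 UMIs), against 3224 and 3336 CPM in T or NK cell-like cells, the class next in order. H2-D1 stood at 5019 and 4585 CPM in endothelial cell-like cells, and the next class reached 2239 CPM in Normoxia (T or NK cell-like) and 2580 CPM in Hypoxia (neutrophil-like, 28 cells). H2-K1 stood at 2164 and 2785 CPM, against 1387 and 1468 CPM in T or NK cell-like cells. For these 3 genes, the interval of the endothelial cell-like cells did not overlap the next one in either library, whereas T or NK cell-like and macrophage or monocyte-like cells overlapped for B2m in Normoxia and for H2-D1 in both libraries.

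The lowest levels were found in cluster 5 of the Normoxia library, 45 cells that were left without a name and whose leading genes included Hhip, Igfbp3 and Rgs5. Its B2m stood at 1014 CPM (856 to 1194), its H2-D1 at 557 CPM (441 to 694) and its H2-K1 at 218 CPM (148 to 310). Fibroblast-like cells of the same library were next, at 1479 CPM for B2m, 997 CPM for H2-D1 and 320 CPM for H2-K1, and their H2-K1 interval overlapped that of cluster 5. Cluster 5 had only 6 Hypoxia cells, too few to be compared.

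The peptide-supply genes did not follow a single order. Psmb8 was highest in T or NK cell-like cells, at 585 CPM in Normoxia and 574 CPM in Hypoxia. B cell-like cells came next, at 382 and 506 CPM, with overlapping intervals in both libraries. The Hypoxia interval of T or NK cell-like cells (486 to 674) lay above that of endothelial cell-like cells (378 CPM, 331 to 430). Psmb9, which lies on the other side of Tap1 on the chromosome, was highest in endothelial cell-like cells, at 255 and 335 CPM. In Hypoxia it lay apart from the next class (T or NK cell-like, 175 CPM). Tapbp was also highest in endothelial cell-like cells, at 457 and 365 CPM, and overlapped cluster 8 in both libraries. Tap2 reached 195 and 180 CPM in endothelial cell-like cells, and in Hypoxia no other class overlapped it, whereas in Normoxia cluster 8 stood above it at 216 CPM with overlapping intervals. Tap1 stood at 99.4 and 136 CPM there, overlapping T or NK cell-like cells in Normoxia (100.2 CPM) and B cell-like cells in Hypoxia (69.0 CPM). Nlrc5 was barely counted, with 10 UMIs in all retained Normoxia cells and 21 in Hypoxia and at most 7 in any class.

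**Figure D1:**
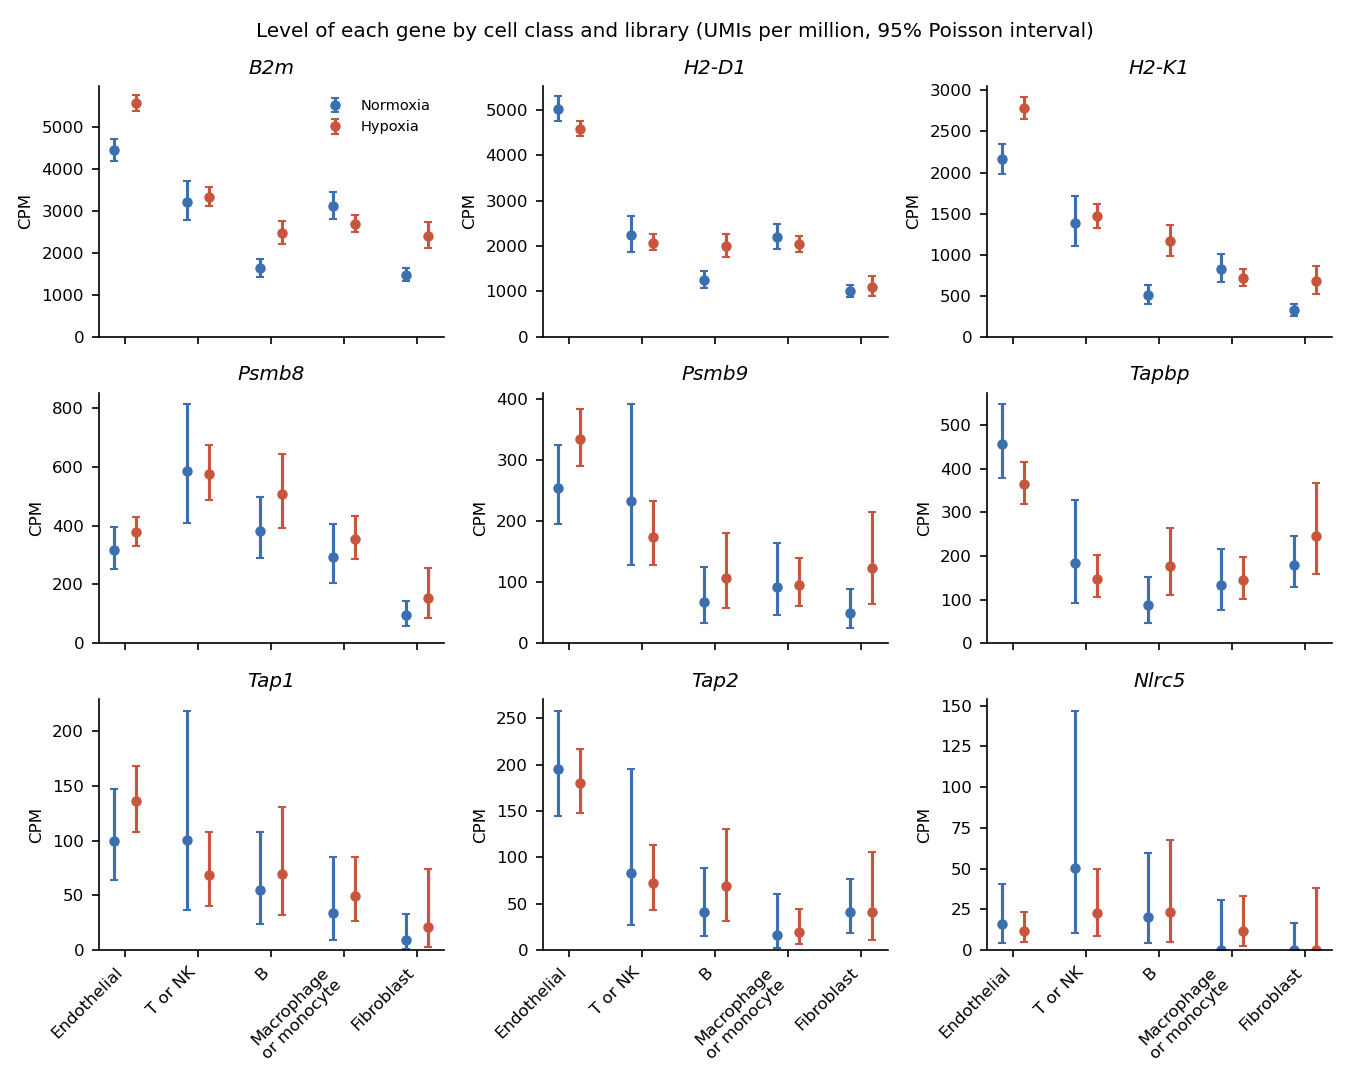
Level of each gene in CPM (vertical axis, linear and from 0) in 5 cell classes of the Normoxia (blue) and Hypoxia (red) library, with 95% Poisson intervals as bars. B2m, H2-D1 and H2-K1 are highest in endothelial cell-like cells of both libraries. Psmb8 is highest in T or NK cell-like cells, where its intervals overlap those of B cell-like cells. Nlrc5 rests on at most 7 UMIs per point.

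Free RNA in the droplets was judged from barcodes dominated by haemoglobin, since mature red cells of the mouse carry no nucleus. These 28 Normoxia and 14 Hypoxia barcodes, with a median of 3999 and 4906 UMIs, held 0 UMIs of each of the 9 genes, which allows up to 25.1 and 44.9 CPM. The UMIs of B2m, H2-D1 and H2-K1 in cluster 5 lay above those limits. After each cell was thinned to 1000 UMIs, H2-K1 was detected in 83.1% of Normoxia (74 of 89) and 85.7% of Hypoxia (156 of 182) endothelial cell-like cells, compared with 15.8% of Normoxia fibroblast-like cells (6 of 38). Without thinning, these shares were 94.6% and 99.5% in endothelial cell-like and 71.8% in Normoxia fibroblast-like cells. The median depths were 2486 and 2802 UMIs in the endothelial cell-like cells and 5440 UMIs in the Normoxia fibroblast-like cells. For comparison, 0 of 28 and 0 of 14 haemoglobin barcodes had an H2-K1 UMI.

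Within endothelial cell-like cells, H2-K1 and B2m were higher in the Hypoxia library and H2-D1 was slightly lower, with intervals that left out 0 for all 3. A median Normoxia cell had 20.9 H2-K1 UMIs per 10000 (quartiles 12.3 and 32.2) and a median Hypoxia cell 26.8 (17.4 and 40.7). The log2 ratio of Hypoxia over Normoxia was 0.36 for H2-K1 (0.22 to 0.51) and 0.33 for B2m (0.23 to 0.42), whose median per cell was 43.2 in Normoxia and 57.2 in Hypoxia. H2-D1 had a log2 ratio of -0.13 (-0.23 to -0.03), with medians of 43.4 and 47.1 per 10000 in the cells, so the summed level and the median cell differed in direction. Among the single endothelial clusters, its interval left out 0 in cluster 10 alone. Cells of the 2 libraries overlapped widely for all 3 genes, with Hypoxia H2-K1 running from 0 to 75.2 and Normoxia from 0 to 60.8 per 10000. The size of the first 2 ratios depended on the filter for mitochondrial RNA (main maximum 5%). With a maximum of 10%, H2-K1 had a log2 ratio of 0.16, B2m of 0.17 and H2-D1 of -0.25, and with no maximum 0.19, 0.21 and -0.19.

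**Figure D2:**
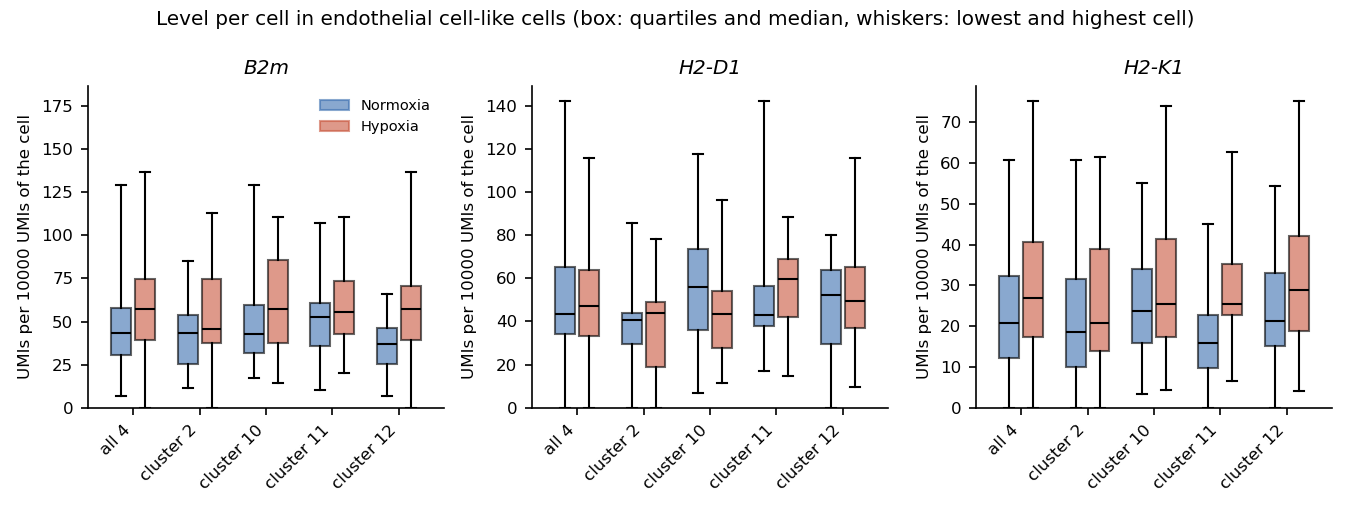
UMIs per 10000 UMIs of the cell (vertical axis) for B2m, H2-D1 and H2-K1 in endothelial cell-like cells of Normoxia (blue) and Hypoxia (red), for all 4 clusters together and for each. Boxes show quartiles and median and whiskers the lowest and highest cell. The distributions overlap in every cluster, and the Hypoxia median of H2-K1 lies above the Normoxia median in each of the 4 clusters.

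The genes that supply and load peptide gave wider intervals. Psmb9 was counted in 64 Normoxia and 205 Hypoxia UMIs, with a log2 ratio of 0.40 (-0.01 to 0.83). Psmb8 had 80 and 231 UMIs and a log2 ratio of 0.25 (-0.12 to 0.63). For the transporter, Tap1 had 25 and 83 UMIs (log2 ratio 0.45, -0.21 to 1.16) and Tap2 had 49 and 110 (-0.11, -0.61 to 0.40). Of the 8 members with at least 20 UMIs, Tapbp had the lowest ratio, with 115 and 223 UMIs and a log2 ratio of -0.33 (-0.66 to 0.01). None of these 5 intervals left out 0, and Nlrc5, with 4 and 7 UMIs, could not be compared at this depth. Summed over the 6 genes, the machinery stood at 1340 and 1406 CPM, a log2 ratio of 0.07 (-0.11 to 0.25).

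A gene was called different when its CPM differed by at least 1.5 times and its interval left out equality. By this rule, 4.16% of the 5935 genes with at least 20 UMIs in endothelial cell-like cells were higher in Hypoxia and 6.05% were lower. Of the 8 members with that many UMIs, 0 were called in either direction. Their median log2 ratio was 0.29, compared with -0.01 over all genes tested. H2-K1 stood above 76.1% and B2m above 74.4% of all genes in the order of ratios, and H2-D1 above 41.0%.

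**Figure D3:**
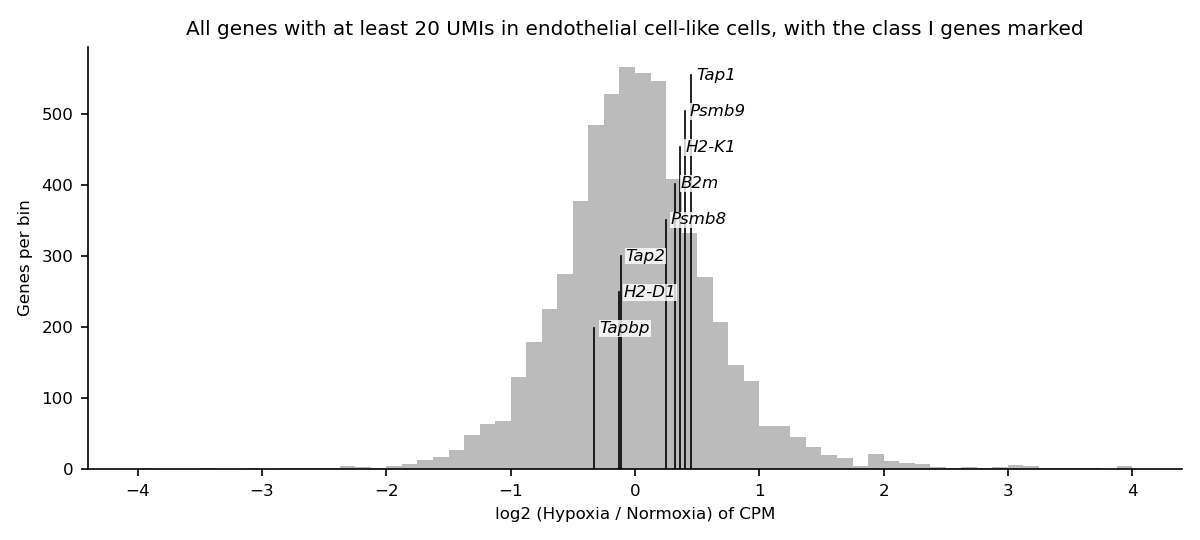
Number of genes (vertical axis) by log2 ratio of Hypoxia over Normoxia CPM (horizontal axis) for the 5935 genes with at least 20 UMIs in endothelial cell-like cells. Vertical lines mark the 8 class I genes tested, which lie between -0.33 (Tapbp) and 0.45 (Tap1) inside the bulk of all genes.

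The H2-K1 share of the heavy chain UMIs was higher in Hypoxia. H2-K1 contributed 30.1% of the H2-K1 plus H2-D1 UMIs in Normoxia endothelial cell-like cells (28.0 to 32.3) and 37.8% in Hypoxia (36.4 to 39.2), a log2 odds ratio of 0.49 (0.32 to 0.67). This share depends neither on library size nor on scaling. Among cells with at least 10 UMIs of the pair, the median share was 30.8% in 75 Normoxia cells and 36.4% in 169 Hypoxia cells. More H2-K1 than H2-D1 was counted in 2 of these 75 cells (2.67%, 0.325 to 9.30) and in 22 of the 169 (13.0%, 8.34 to 19.0). The summed share was higher in Hypoxia in each of the 4 endothelial clusters. Cluster 11 went from 23.8% to 33.8% (log2 odds ratio 0.71, 0.31 to 1.11) and cluster 10 from 30.1% to 37.6% (0.48, 0.16 to 0.80), and both intervals left out 0. Cluster 12 had 34.2% and 38.7% (0.28, -0.04 to 0.61) and cluster 2 had 35.8% and 38.9% (0.19, -0.30 to 0.68), where the median cell was lower in Hypoxia (37.3% in 10 Normoxia and 35.5% in 24 Hypoxia cells). Under the 10% and the absent mitochondrial maximum, the log2 odds ratio over all endothelial cell-like cells was 0.41 and 0.38. Cluster 8, which was left unnamed and is described below, had shares of 44.2% and 42.4% (-0.10, -0.58 to 0.37). With cluster 8 added to the class after the data were seen, the log2 odds ratio was 0.39 (0.23 to 0.54). No H-2 typing of the mice was used here, and the counts refer to the alleles of the reference genome.

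A higher H2-K1 share in Hypoxia was also counted in B cell-like cells, from 28.8% to 36.8% (log2 odds ratio 0.53, 0.02 to 1.03), and in fibroblast-like cells, from 24.3% to 38.2% (0.94, 0.32 to 1.56). Few of these cells had at least 10 UMIs of the pair, 9 Normoxia and 15 Hypoxia B cell-like cells and 11 and 5 fibroblast-like cells. T or NK cell-like cells had 38.2% and 41.5% (0.19, -0.26 to 0.65). Macrophage or monocyte-like cells had 27.3% and 26.0% (-0.10, -0.52 to 0.33). Whether the classes differ from each other in this was not tested.

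**Figure D4:**
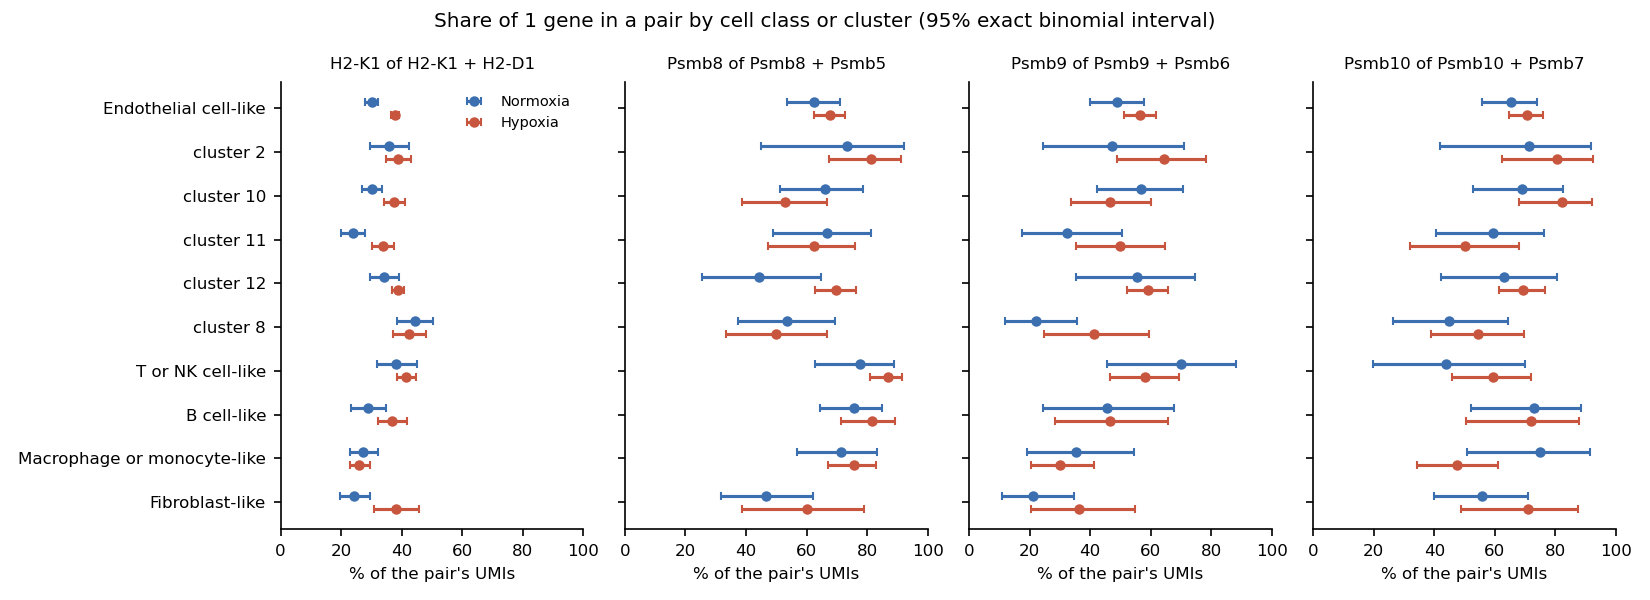
Share of the first gene in each pair's UMIs, in percent (horizontal axis), by cell class or cluster in Normoxia (blue) and Hypoxia (red), with 95% exact binomial intervals. The H2-K1 share lies further right in Hypoxia in all 4 endothelial clusters, in B cell-like and in fibroblast-like cells, while the proteasome pairs mostly overlap between the libraries.

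The members' ratios were also computed in each of the 4 endothelial clusters, of which the one with the most cells differed between the libraries, cluster 10 in Normoxia (36 of 93 cells) and cluster 12 in Hypoxia (102 of 189). Cluster 12, with Cdk19 and Ntrk2 among its leading genes, had B2m at 3338 CPM in Normoxia and 5525 CPM in Hypoxia (log2 ratio 0.73, 0.51 to 0.95) and Psmb8 at 210 and 402 CPM from 12 and 134 UMIs (0.94, 0.09 to 1.93). Cluster 11, with Car4 and Ednrb among its leading genes, had H2-K1 at 1784 and 2787 CPM (0.64, 0.31 to 0.99) with H2-D1 at 5724 and 5465 CPM. In cluster 10, whose leading genes included Plvap and Hilpda, H2-D1 was lower in Hypoxia, at 5238 and 3963 CPM (-0.40, -0.59 to -0.22), and B2m was higher (0.30, 0.13 to 0.47). The H2-D1 intervals of clusters 2, 11 and 12 held 0, with log2 ratios of 0.06, -0.07 and 0.04. Those of H2-K1 in cluster 10 (0.08, -0.18 to 0.34) and B2m in cluster 11 (0.10, -0.11 to 0.31) also held 0. Cluster 2 had B2m at 4194 and 5425 CPM (0.37, 0.10 to 0.65) and H2-K1 at 2195 and 2607 CPM (0.25, -0.13 to 0.64). With the 4 cluster levels weighted by the Normoxia make-up, the log2 ratios over the class were 0.29 for H2-K1, 0.34 for B2m and -0.16 for H2-D1.

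Markers of other cell types were counted in the endothelial cell-like cells as well, and their part in the ratios was not tested beyond the values given here. The 12 T or NK cell markers together gave 3.98 CPM in Normoxia and 8.18 CPM in Hypoxia endothelial cell-like cells, with Cd3e, Cd3d, Cd3g and Trbc2 at 0 in both. The 14 macrophage or monocyte markers gave 31.8 and 83.5 CPM (5 and 7 detected), with Csf1r, Mrc1, Cx3cr1 and Marco at 0 in both, and the 8 B cell markers gave 11.9 and 42.5 CPM, with Ms4a1 at 0 in both. The 9 fibroblast markers went the other way, at 123 and 24.5 CPM, as did the 5 erythroid markers, at 597 and 229 CPM. A Ptprc UMI was found in 0 Normoxia and 5 Hypoxia cells of the class, and without them the log2 ratio of H2-K1 was 0.37 and that of B2m 0.32. Cluster 8 held all 11 endothelial markers above the thresholds but was left unnamed because the club cell gene Scgb1a1 led it. An endothelial marker was counted in 11 of its 20 Normoxia and 18 of its 23 Hypoxia cells. Endothelial markers summed to 3531 and 8592 CPM, club cell markers to 75607 and 112250 CPM and type 2 pneumocyte markers to 24662 and 4002 CPM. The part of this differing mixture in its ratios was not tested. Cluster 8 had log2 ratios of -0.36 for H2-K1, -0.25 for H2-D1 and -0.28 for B2m, none of whose intervals left out 0. Tap2 stood at 216 and 66.9 CPM there, from 20 and 9 UMIs (-1.69, -3.01 to -0.49). With cluster 8 added to the class, a choice made after the data were seen, H2-D1 had a log2 ratio of -0.04 (-0.13 to 0.05) and no longer left out 0, and H2-K1 and B2m had 0.35 and 0.36.

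Each immunoproteasome subunit takes the place of a constitutive one, so its share of the UMIs of that pair was computed. Psmb9 contributed 48.9% of the UMIs of Psmb9 plus its constitutive counterpart Psmb6 in Normoxia endothelial cell-like cells and 56.5% in Hypoxia (log2 odds ratio 0.44, -0.17 to 1.05). Psmb8 contributed 62.5% and 67.7% of the pair with Psmb5 (0.33, -0.32 to 0.97), and Psmb10 contributed 65.2% and 70.5% of the pair with Psmb7 (0.35, -0.37 to 1.06). In fibroblast-like cells the Psmb9 share was 21.2% and 36.4%, and in cluster 5 of Normoxia it was 4.26%, 2 of 47 UMIs (0.520 to 14.5). The single endothelial clusters differed in direction. In cluster 12, the Psmb8 share was 44.4% in Normoxia (12 of 27 UMIs) and 69.8% in Hypoxia (1.53, 0.23 to 2.84). It was lower in Hypoxia in cluster 10, at 66% and 52.8% (-0.79, -2.06 to 0.46), and in cluster 11, at 66.7% and 62.5% (-0.26, -1.72 to 1.17). Cluster 2 had a higher share in Hypoxia (0.66, -1.76 to 2.82). The Psmb9 share was lower in Hypoxia in cluster 10 alone (-0.59, -1.77 to 0.59) and the Psmb10 share in cluster 11 alone (-0.55, -2.14 to 1.04). In macrophage or monocyte-like cells the Psmb10 share was 15 of 20 UMIs in Normoxia and 28 of 59 in Hypoxia (47.5%), a log2 odds ratio of -1.73 (-3.71 to 0.04). In cluster 7 it was 9 of 10 UMIs in Normoxia and 3 of 12 in Hypoxia (-4.75, -10.36 to -0.90), which left out 0. T or NK cell-like cells had the highest Psmb8 share of the 5 classes, 77.8% in Normoxia and 86.8% in Hypoxia. B cell-like cells had 75.7% and 81.5%, with overlapping intervals.

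B cell-like cells gave the largest ratios of the 5 classes for H2-K1 and H2-D1, although their H2-K1 interval overlapped that of fibroblast-like cells. H2-K1 stood at 504 CPM in 31 Normoxia cells and 1166 CPM in 54 Hypoxia cells (log2 ratio 1.21, 0.80 to 1.63), H2-D1 at 1247 and 2002 CPM (0.68, 0.40 to 0.96) and B2m at 1629 and 2470 CPM (0.60, 0.35 to 0.85). All 3 were called higher, of 6 members with at least 20 UMIs, compared with 11.5% of 1384 genes called higher and 7.01% called lower in this class. After thinning to 1000 UMIs, H2-K1 was detected in 35.5% of Normoxia (11 of 31) and 60.4% of Hypoxia (32 of 53) B cell-like cells, and without thinning in 74.2% and 85.2%. The depth of these cells differed, with a median of 4114 UMIs in Normoxia and 1862 in Hypoxia, and its part in the ratios was not tested.

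In fibroblast-like cells, H2-K1 stood at 320 CPM in 39 Normoxia cells and 678 CPM in 21 Hypoxia cells (log2 ratio 1.08, 0.58 to 1.59) and B2m at 1479 and 2416 CPM (0.71, 0.46 to 0.95). H2-D1 was at 997 and 1100 CPM (0.14, -0.20 to 0.48). Psmb9 rested on 11 and 12 UMIs (1.31, 0.01 to 2.64). After thinning to 1000 UMIs, H2-K1 was detected in 6 of 38 Normoxia and 5 of 16 Hypoxia fibroblast-like cells. After thinning to 500 UMIs, the order was reversed, at 7 of 39 and 2 of 21. H2-K1, B2m and Psmb9 were called higher, 3 of 6 members, beside 6.06% of 2392 genes called higher and 7.57% called lower.

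In T or NK cell-like cells, the summed levels of H2-K1, H2-D1 and B2m differed little between the libraries. Their log2 ratios were 0.08 for H2-K1 (-0.26 to 0.44), -0.11 for H2-D1 (-0.39 to 0.17) and 0.05 for B2m (-0.18 to 0.28). A 1.5-fold difference lay outside each of these intervals, which cover counting error only and leave out the spread among cells and animals. With only 13 Normoxia cells, the 5 machinery genes tested had wider intervals, and 0 of 8 members were called, beside 3.34% of 1734 genes called higher and 6.63% called lower. In macrophage or monocyte-like cells, B2m stood at 3119 CPM in Normoxia and 2689 CPM in Hypoxia (-0.21, -0.40 to -0.03), H2-K1 at 826 and 716 CPM (-0.21, -0.56 to 0.16) and H2-D1 at 2193 and 2038 CPM (-0.11, -0.32 to 0.11). Here 0 of 6 members were called, beside 10.4% of 2406 genes higher and 6.57% lower. Different clusters made up this class, cluster 7 in Normoxia (19 of 28 cells) and clusters 14 and 15 in Hypoxia (20 and 15 of 45). B2m was lower in Hypoxia in cluster 7 (-0.43, -0.72 to -0.14) but not in cluster 14 (0.22, -0.10 to 0.54).

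**Figure D5:**
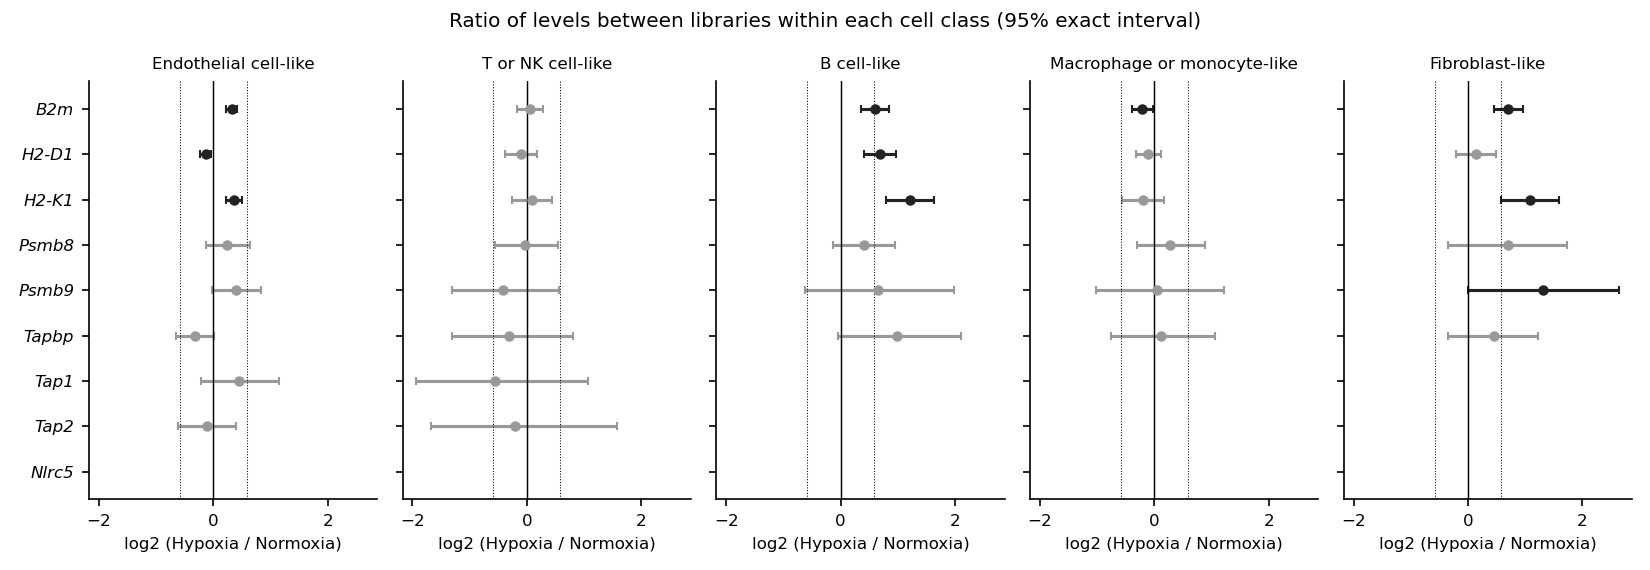
Log2 ratio of Hypoxia over Normoxia CPM (horizontal axis) for each class I gene with at least 20 UMIs in a class, with 95% exact intervals. Black points have intervals that leave out 0, grey points do not, and dotted lines mark a 1.5-fold difference. H2-K1 and B2m lie right of 0 in endothelial, B and fibroblast-like cells and near 0 in T or NK cell-like cells.

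Summed over all retained cells, every member had a ratio above 0. For 6 of the 9 the interval left out 0, but the share of all genes with such an interval was not counted. H2-K1 stood at 985 and 1691 CPM (log2 ratio 0.78, 0.68 to 0.88), B2m stood at 2511 and 3743 CPM (0.58, 0.51 to 0.64) and H2-D1 at 2192 and 2880 CPM (0.39, 0.32 to 0.47). The machinery summed to 753 and 1023 CPM (0.44, 0.32 to 0.56), with Psmb9 at 0.79 (0.49 to 1.09), Tap1 at 0.72 (0.25 to 1.20), Psmb8 at 0.55 (0.35 to 0.76), Tapbp at 0.16 (-0.07 to 0.40) and Tap2 at 0.04 (-0.32 to 0.40). H2-K1, Psmb9 and Tap1 passed the 1.5-fold rule, 3 of 9, compared with 9.43% of 9813 genes called higher and 10.1% called lower. The median log2 ratio was 0.55 over the members and 0.04 over all genes tested (quartiles -0.32 and 0.38). The immunoproteasome shares were also higher, at 64.0% and 73.2% for Psmb8, 34.8% and 49.8% for Psmb9 and 56.0% and 63.9% for Psmb10.

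These sums mix cell classes whose proportions differed, and in them fewer cells of a type and less RNA per cell cannot be told apart. Endothelial cell-like cells, with the most class I, were 31.7% of Normoxia and 41.7% of Hypoxia cells and T or NK cell-like cells 4.44% and 16.8%, while cluster 5, with the least, was 15.4% and 1.32%. When the levels of the 6 classes and clusters with at least 10 cells in each library were weighted by the Normoxia make-up, the log2 ratio was 0.38 for H2-K1, 0.29 for B2m and 0.15 for the machinery. H2-D1 then changed direction, at -0.02. Together, the 6 accounted for 80.2% of UMIs in Normoxia and 94.1% in Hypoxia.

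Among related genes in endothelial cell-like cells, the heavy chains outside the 9 members were counted most in H2-Q7 (616 and 694 CPM), H2-Q4 (573 and 686 CPM) and H2-Q6 (310.2 and 453 CPM). Of 13 such genes, 12 were in the matrices, 6 had at least 20 UMIs, 0 were called and the median log2 ratio was 0.12, with H2-Q6 the highest at 0.55 (0.18 to 0.93). H2-Q genes are close copies of each other, so reads may have been divided among them. Of the 6 class I-like genes, 5 were in the matrices, 3 were tested and 0 called (median 0.12), with Hfe, which binds the transferrin receptor, at 99.4 and 108 CPM. The 7 loading and trimming genes had a median of 0.12 and 0 calls, with the chaperone calreticulin (Calr) at 434 and 452 CPM and the oxidoreductase Pdia3 at 374 and 406 CPM.

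The lists also held proteasome genes outside the members. Psmb10, the remaining immunoproteasome subunit, stood at 298 and 301 CPM (log2 ratio 0.01, -0.38 to 0.42), and the activator genes Psme1 and Psme2 had ratios of -0.03 and 0.00, so that 0 of 3 were called. The constitutive subunits Psmb5, Psmb6 and Psmb7 had ratios of -0.08, -0.04 and -0.34 and 0 of 3 were called. The other 11 core subunits had a median of -0.15 and 0 calls.

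Among 16 regulators of class I transcription, 13 were tested in endothelial cell-like cells, with a median log2 ratio of -0.27. Of these, 1 was called higher and 1 lower, beside 4.16% of all 5935 genes called higher and 6.05% called lower. Nfkb1, a subunit of NF-kB, was called higher, at 55.7 and 126 CPM (1.18, 0.35 to 2.12). Irf7, an interferon response factor, was called lower, at 79.5 and 29.5 CPM (-1.43, -2.44 to -0.44). Irf1, the most abundant of the list, had 195 and 162 CPM (-0.27, -0.77 to 0.26), and Rela, the partner of Nfkb1, had 115 and 75.3 CPM (-0.62, -1.32 to 0.11). Of 6 interferon receptor and ligand genes, 4 were tested. The chains of the interferon-gamma receptor went in opposite directions, and both were called, beside the same shares over all genes. Ifngr1 stood at 322 and 555 CPM (0.78, 0.43 to 1.15) and Ifngr2 at 151 and 81.8 CPM (-0.89, -1.52 to -0.24). The ligand genes Ifng and Ifnb1 had 0 UMIs in this class in both libraries, which allows up to 11.9 and 4.91 CPM.

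Over the 15 combinations of class and library with at least 10 cells, the gene outside the lists with the profile most like the mean of B2m, H2-K1 and H2-D1 was Pitpnc1, a phosphatidylinositol transfer protein (Pearson r = 0.85 of log2(CPM + 10), 2835 genes compared). Rab35 (0.83), Lfng (0.80), Ly6e (0.79) and Arl6ip1 (0.78) followed. Of the members outside that mean, Psmb9 followed it most closely (0.93), then Tap1 (0.74) and Psmb8 (0.71), while Tapbp (0.53), Nlrc5 (0.45) and Tap2 (0.38) followed it less. The 15 points share 2 libraries and their depth, and the values are a description.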

How the data were processed

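For 2 Chromium 3' v3.1 libraries, the deposited values were unnormalized UMI counts of each gene in each barcode; the matrix headers name Cell Ranger 3.1.0, the submitters' processing notes name mm10 and Seurat, and the study's methods state STAR. Labels describe sorted tdTomato cells of NG2tdT mice. The study's methods describe mouse single-cell data of another series, from wild-type lung depleted of CD45 and CD326 cells, so its aligner and cell filter are not stated for these libraries, and the filter was borrowed here. Replicates are mentioned in the labels, yet each group had a single matrix here. Retained barcodes had between 200 and 6000 genes and no more than 5% of UMIs from mitochondrial genes. Cells were clustered with scanpy 1.11.5 (2000 variable genes without the members and related lists, 15 components, Leiden resolution 1.0). A cluster was named for the class with the most markers, if at least 3 were detected in 25% of its cells at 2 times the median CPM over clusters. It stayed unnamed on a tie or where another class had more markers among its 10 leading genes. Doublets stayed in; Scrublet marked 1 and 2 cells. UMIs were summed per class and library. Levels have exact Poisson, ratios exact conditional binomial and shares Clopper-Pearson intervals at 95% confidence, for counting error only, and a count of 0 was taken to allow 3 counts. With 1 library per group no test was made. The ratio calculation was tested on simulated counts. Alternatives covered the filters, doublets, clustering, class assignment, scaling, weighting, thinning depth and thresholds. All 9 members were named, list genes only beside their list's counts, highest CPM or calls first, and 5 genes of like profile. Members and lists were chosen with earlier results of these data known.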

Additional observations from a re-analysis of the deposited data

Results flagged for a closer look

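B2m had intervals that leave out equality in opposite directions in different cell classes. Its log2 ratio of Hypoxia over Normoxia was 0.33 in endothelial cell-like, 0.60 in B cell-like and 0.71 in fibroblast-like cells, and -0.21 in macrophage or monocyte-like cells. H2-D1 likewise had 0.68 in B cell-like cells and -0.13 in endothelial cell-like cells. Clusters within these classes differed. In macrophage or monocyte-like cells, B2m was lower in cluster 7 but not in cluster 14 (0.22, -0.10 to 0.54), and cluster 15 had 0 Normoxia cells. In endothelial cell-like cells, the H2-D1 interval left out 0 in cluster 10 alone, and the median cell had more H2-D1 in Hypoxia. With 1 library per condition the difference between classes was not tested.

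Barcodes left out of the comparisons also carried class I RNA, apart from those dominated by haemoglobin. In the remaining 52 Normoxia and 146 Hypoxia barcodes, which had a median of 1304 and 1617 UMIs, H2-K1 stood at 1198 and 1335 CPM, H2-D1 at 1633 and 1916 CPM and B2m at 2428 and 2793 CPM, above the limit of 32.7 and 9.08 CPM that a count of 0 allows.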

How the results depend on the processing

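No paired analysis was possible because each group has 1 library, and no replicate could be left out. Of the main ratios in endothelial cell-like cells, those that moved beyond their interval did so with the mitochondrial maximum (10%: H2-K1 0.16, B2m 0.17, H2-D1 -0.25; none: H2-K1 0.19, B2m 0.21) or with cells assigned one by one by markers (B2m 0.20). In all retained cells, weighting by the Normoxia make-up gave 0.38 for H2-K1, 0.29 for B2m, 0.15 for the machinery and -0.02 for H2-D1, whose direction changed (-0.0191787). A fold of 2 left 151 genes higher and 179 lower in endothelial cell-like cells, from 247 and 359; these are fewer by construction. Other settings (maximum of 4000 genes, doublets, resolution, scaling, equal weight per cell, the cell with most UMIs, and, chosen after seeing the data, cluster 8, cluster make-up and shared barcodes) kept the ratios of H2-K1, H2-D1 and B2m within their intervals. The summed machinery in endothelial cell-like cells crossed 0 under some settings (-0.05 to 0.18), as its main interval does; the log2 odds ratio of H2-K1 against H2-D1 stayed between 0.38 and 0.55 in endothelial cell-like cells. The causes were not tested. Depth limits Nlrc5, Tap1 and Tap2 most, and 1 library per group limits every comparison.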
